A study of Mus musculus with 4 samples.

Results

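The AP-1 transcription factors described here are the Fos family (Fos, Fosb, Fosl1, Fosl2) and the Jun family (Jun, Junb, Jund), taken as the 7 table rows with these symbols out of 20032 genes. RNA of whole mouse olfactory bulbs was sequenced at postnatal day 11 in 4 libraries, on a mixed background of C57BL/6J, 129S6 and CD1. The 2 DCKO libraries (double conditional knockout) came from mice with Sp8 Flox/Flox and Sp9 Flox/Flox alleles and the Dlx5/6-CIE transgene, in which a Dlx5/6 enhancer drives Cre in GABAergic precursors of the forebrain, so that the zinc finger factors Sp8 and Sp9 are deleted from the lineage that makes bulb interneurons. The 2 control libraries came from littermates without Cre, and whether these carried floxed alleles is not given in the sources used here. An effect of the Cre transgene and one of the deletion therefore cannot be told apart. The labels do not say whether libraries of a genotype came from separate animals, so p-values measure the spread between these libraries, which may be technical.

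AP-1 is a dimer of basic leucine zipper (bZIP) proteins that binds the DNA motif TGANTCA. Jun proteins pair with each other or with Fos proteins, whereas Fos proteins need a partner from the Jun family. Fos, Fosb and Junb are immediate early genes, transcribed within minutes of synaptic activity through calcium, ERK kinase, CREB and SRF signalling. In the bulb, odour-driven activity is known to induce Fos in granule and periglomerular interneurons and in mitral cells. Jun also responds to activity and to stress through the Jun N-terminal kinases (JNK), and Jund is the member known for steady expression.

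The promoters of the activity-driven members and of Jun are shown because these genes moved differently in the bulb. RefSeq (GRCm38.p6) gave a promoter for 6 of the 7 members, all but Fosl1. The 4 sequences below are the 150 bases before the annotated start, read along the gene. Capitals mark TGACG (the core of a CREB site), TGACATCA (the AP-1-like site for which the Jun promoter is known), GGGCGG (the GC box bound by Sp proteins) or its complement CCGCCC, and TATAAA.
Fos, chr12:85473740-85473889, + strand: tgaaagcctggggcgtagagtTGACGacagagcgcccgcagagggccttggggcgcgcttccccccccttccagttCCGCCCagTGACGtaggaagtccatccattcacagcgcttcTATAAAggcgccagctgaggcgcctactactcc
Fosb, chr7:19310046-19310195, - strand: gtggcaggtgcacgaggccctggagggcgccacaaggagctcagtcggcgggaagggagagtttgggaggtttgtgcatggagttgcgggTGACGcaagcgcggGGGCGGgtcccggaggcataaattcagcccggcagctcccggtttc
Junb, chr8:84978749-84978898, - strand: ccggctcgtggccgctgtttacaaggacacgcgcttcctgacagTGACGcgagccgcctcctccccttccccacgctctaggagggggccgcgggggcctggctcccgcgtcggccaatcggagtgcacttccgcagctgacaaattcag
Jun, chr4:95052223-95052372, - strand: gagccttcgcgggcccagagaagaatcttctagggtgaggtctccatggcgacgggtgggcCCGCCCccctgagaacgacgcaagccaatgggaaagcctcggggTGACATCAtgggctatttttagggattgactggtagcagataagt

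Among the 6 member promoters searched on both strands, TGACG lay in those of Fos, Fosb and Junb and in no other. It lay in 13.3% of 32843 promoters of this length. TGACATCA lay in Jun alone, against 2.32% of all promoters, GGGCGG in Fos, Fosb, Fosl2 and Jun, against 28.6%, and TATAAA in Fos alone, against 7.58%. TGANTCA, in 4.24% of all promoters, and the CArG box, the SRF site, in 0.916%, were in none of the 6 windows. Bases outside these 150 were not searched, so a gene without a match here may still have such a site elsewhere. None of these motifs overlapped another in the 6 windows. The windows of Fosl2 and Jund were searched but are not printed, since their RefSeq starts lay 299 and 1210 bases from the nearest GENCODE start. A match of letters is a description and not a bound site.

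Transcripts of Fos, Fosb, Fosl2 and Junb fell to a small part of the control level in the DCKO bulbs, Jund fell slightly, and Jun did not pass the test. The test was limma on log2(FPKM + 1) over the 13434 genes that averaged 1 FPKM or more (fragments scaled by transcript length and library size). A gene counts as lower or higher at a Benjamini-Hochberg adjusted p below 0.05. Of the 7 members, 6 passed the filter on low values and 5 of those were lower and none higher in limma, and none was higher at an unadjusted p below 0.05. Over all tested genes 14.3% were lower and 13.0% higher. The median log2 change was -2.80 over the 6 tested members and -0.02 over all tested genes. A log2 change of -2 or below, with the call, was found for 4 members and for 0.744% of all tested genes. Fosb passed the filter through its control values, being under 1 FPKM in both DCKO libraries.

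**Figure D1:**
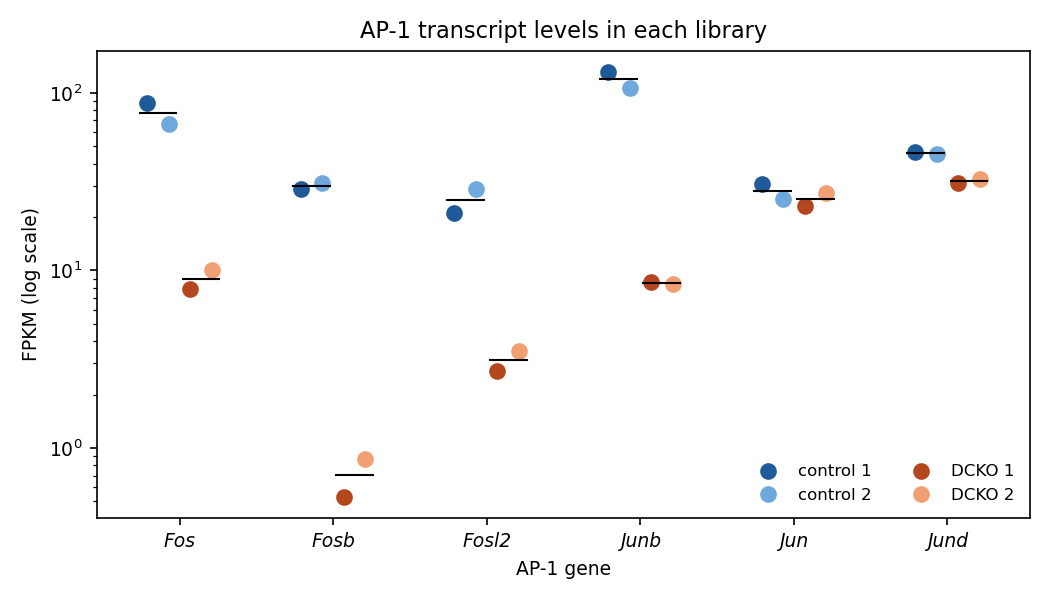
FPKM of the 6 detected AP-1 genes (log axis) in each library, with the group means as black lines. Fos, Fosb, Fosl2 and Junb are far lower in both DCKO libraries, Jund is slightly lower, and the Jun groups overlap; Fosl1 is listed at 0 and is not drawn.

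Fos encodes the founding member of the family and is the usual marker of recently active neurons (chromosome 12, 85473890 to 85477273, GRCm38, + strand, 4 exons). It stood at 87.7 and 66.5 FPKM in control replicates 1 and 2 and at 7.90 and 10.0 FPKM in DCKO replicates 1 and 2. The lowest control was 6.65 times the highest DCKO library. The mean fell 8.61-fold, with a log2 change of -2.97 (adjusted p = 0.00146 in limma, SE 0.17, 95% interval -3.41 to -2.53). Of all tested genes, 0.342% changed by this much or more in that direction.

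Fosb, whose transcript is also spliced to the long-lived truncated protein known as delta FosB, showed the largest decrease of the family (chromosome 7, 19302696 to 19310051, - strand, 4 exons). It measured 28.9 and 31.0 FPKM in control bulbs, against 0.533 and 0.869 FPKM in DCKO bulbs. Both controls were close to each other and more than 30 times above either DCKO library, with 33.2 as the ratio of the lowest control to the highest DCKO value. The log2 change was -4.19 (adjusted p = 0.000639 in limma, SE 0.12, 95% interval -4.51 to -3.87), and the ratio of mean FPKM was 42.7. This scale understates the change of a gene so low, and with a pseudocount of 0.01 the log2 change was -5.44. The fragments behind these values, as scaled by the authors, numbered 1665 and 1780 in the controls and 31.3 and 50.8 in DCKO. Among the 6 detected members Fosb had the fewest fragments in DCKO. Only 6 of the 13434 tested genes, Fosb included, changed by this much or more. The gene-level FPKM does not separate full-length from delta FosB transcripts.

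Fosl2, which encodes Fra-2, a Fos protein without the long activation domain of Fos, was lower as well (chromosome 5, 32135801 to 32157842, + strand, 4 exons). Its values were 21.0 and 28.6 FPKM in control bulbs, against 2.72 and 3.54 FPKM in DCKO bulbs. Control replicate 2 was the higher control for Fosl2 and Fosb, whereas control replicate 1 was the higher one for Fos, Junb, Jun and Jund. The log2 change of Fosl2 was -2.64 (adjusted p = 0.00217 in limma, SE 0.18, 95% interval -3.10 to -2.18), with a 7.94-fold lower mean.

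Fosl1, which encodes Fra-1, was listed at 0 FPKM in all 4 libraries, and so were 440 genes of the table (chromosome 19, 5447547 to 5455946, + strand). No level and no change can be given for it. It overlaps Ccdc85b, which was detected at 8.61 and 8.39 FPKM in control bulbs, against 7.37 and 8.52 FPKM in DCKO bulbs, with a log2 change of -0.09 (limma adjusted p = 0.504).

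Junb, an immediate early gene of the Jun family, had the highest AP-1 FPKM in control bulbs (chromosome 8, 84974484 to 84978718, - strand). Its longest coding transcript has 1 exon. By scaled fragments Fos was above Junb, with 3270 and 2446 in the controls against 2082 and 1599 for Junb. Junb measured 131 and 107 FPKM in control bulbs, against 8.65 and 8.41 FPKM in DCKO bulbs. The DCKO libraries nearly coincided, and the lowest control was 12.4 times the highest of them. The log2 change was -3.65 (adjusted p = 0.000639 in limma, SE 0.11, 95% interval -3.94 to -3.36), a 13.95-fold lower mean. The gene overlaps Prdx2, a peroxidase gene abundant in the bulb, and the strand setting of the counting is not given in the sources used here. Prdx2 did not pass the test (373 and 376 FPKM in the controls, 341 and 338 in DCKO, log2 change -0.14, limma adjusted p = 0.178).

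Jun encodes c-Jun, the main target of JNK (chromosome 4, 95049034 to 95052222, - strand, 1 exon, overlapping the antisense gene Junos). It stood at 30.7 and 25.4 FPKM in control bulbs, against 23.0 and 27.3 FPKM in DCKO bulbs. The groups overlapped, since DCKO replicate 2 lay above control replicate 2. The log2 change was -0.15 (adjusted p = 0.412 in limma, SE 0.13, 95% interval -0.48 to 0.18), an interval that holds no decrease like those of Fos, Fosb, Fosl2 or Junb.

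Jund encodes JunD, found in most cells without stimulation (chromosome 8, 70698949 to 70700616, + strand, 1 exon, overlapping the predicted gene Gm11175). Its values were 46.4 and 45.1 FPKM in control bulbs, against 31.1 and 32.6 FPKM in DCKO bulbs. The groups did not overlap, and libraries within each genotype differed little. DCKO kept 69.6% of the control mean, with a log2 change of -0.51 (adjusted p = 0.00888 in limma, SE 0.06, 95% interval -0.68 to -0.34). A change this low or lower was found in 9.49% of all tested genes. Altogether 5 tested members had groups that did not overlap with DCKO lower, against 37.6% of all tested genes. Groups that did not overlap in either direction made up 71.5% of all tested genes.

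**Figure D2:**
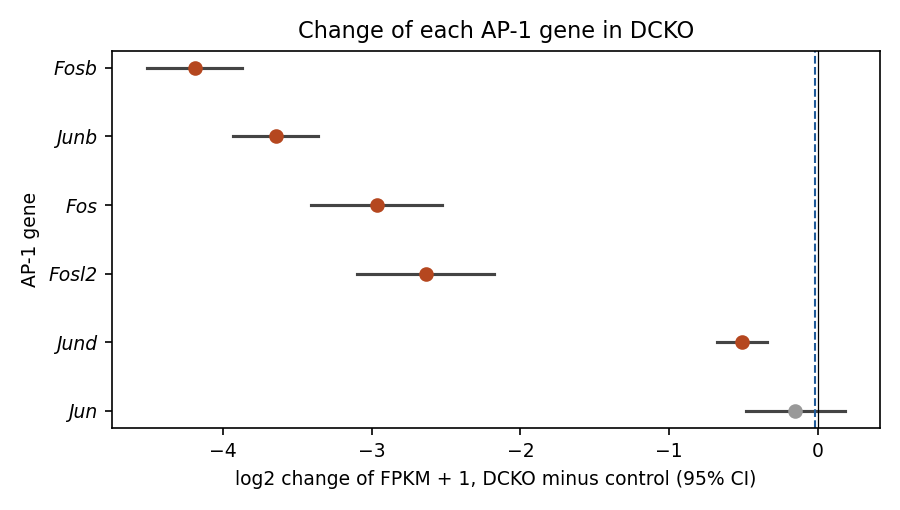
log2 change of FPKM + 1 (DCKO minus control) with its 95% confidence interval for the 6 tested AP-1 genes; orange points passed the test and the grey point did not. The dashed line is the median of all tested genes at -0.02, and the intervals of Fos, Fosb, Fosl2 and Junb lie far below those of Jun and Jund.

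The activity-driven members were set against Jun and Jund within each library, where scaling between libraries plays no part. Fos stood at 2.85 and 2.62 times the Jun level in the controls and 0.343 and 0.367 times in DCKO. Junb was 4.26 and 4.21 times Jun in the controls and 0.376 and 0.308 times in DCKO. The order of Fos and Jun, and that of Junb and Jun, was thus the opposite in every DCKO library of that in every control. Fosb was close to Jun in the controls, at 0.939 and 1.22 times its level, and stood at 0.0231 and 0.0318 times in DCKO. The log2 ratio to Jun differed between genotypes by -2.95 for Fos, -5.30 for Fosb and -3.64 for Junb, and the log2 ratio to Jund by -2.58, -4.94 and -3.27. The largest SD within a genotype over these 6 pairs was 0.45, for Fosb over Jund in DCKO. All 6 differences had a two-sided exact permutation p of 0.333, also after Benjamini-Hochberg adjustment over the 6 pairs, which is the smallest that 2 against 2 libraries allow. Each contrast was therefore larger than the spread between replicates, and this design cannot take its permutation p below 0.05.

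The mix of AP-1 transcripts differed between genotypes. FPKM summed over the family was 346 and 304 in the controls and 74.0 and 82.8 in DCKO. Fos, Fosb and Junb together made up 71.6% and 67.4% of that sum in the controls and 23.1% and 23.3% in DCKO. Jun and Jund made up 22.3% and 23.2% in the controls and 73.2% and 72.4% in DCKO. Fosl2 had a small share throughout, which was lower in DCKO, at 6.08% and 9.42% in the controls and 3.67% and 4.27% in DCKO. Jun family FPKM was 1.51 and 1.41 times Fos family FPKM in control bulbs and 5.63 and 4.74 times in DCKO. These are RNA levels, and protein dimers were not measured.

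**Figure D3:**
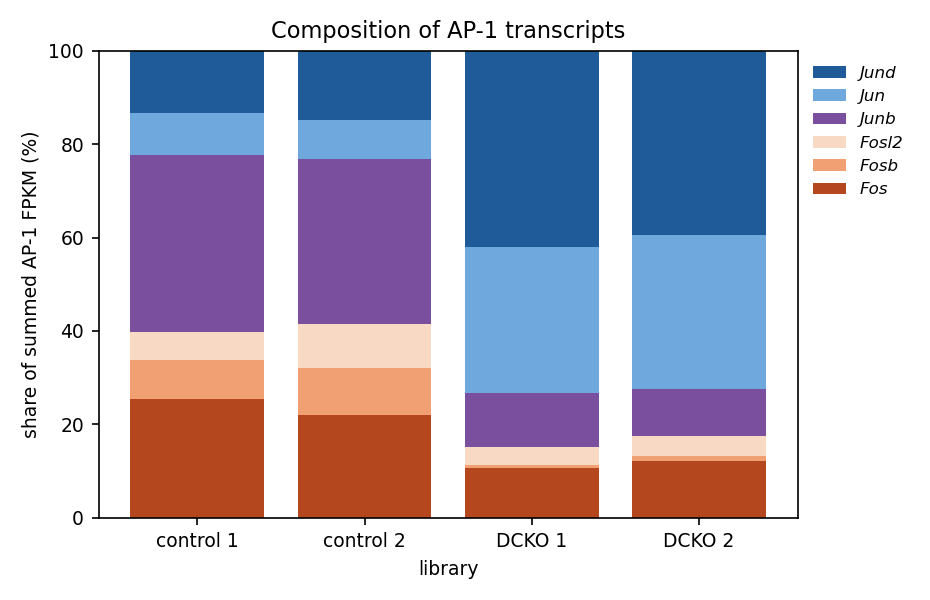
Share of each AP-1 gene in the summed AP-1 FPKM (percent, stacked to 100) for each library. Junb and Fos take most of the bar in the controls, and Jund and Jun take 73.2% and 72.4% in the DCKO libraries.

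By FPKM, the control order was Junb, then Fos, then Jund, followed by Fosb, Jun and Fosl2, whose control values overlapped between 21.0 and 31.0 FPKM. In DCKO the order was Jund, then Jun, then Fos and Junb, whose DCKO values overlapped between 7.90 and 10.0 FPKM, then Fosl2 and last Fosb. FPKM is scaled by transcript length, so levels of different genes can be set side by side.

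Bulb interneurons themselves were affected, and whole-bulb RNA cannot tell fewer cells of a type from less RNA per cell. All 8 granule and GABAergic markers (Meis2, Synpr, Gad1, Gad2, Slc32a1, Penk, Tshz1, Gng4) were lower, but unequally, from 6.24% of the control mean left for Penk to 38.9% for Gad2. Their summed level was 907 and 882 FPKM in control bulbs, against 105 and 156 FPKM in DCKO bulbs. Levels of the AP-1 genes were therefore also expressed as a percentage of that sum, a ratio chosen after the values were seen and given without a test. Fos amounted to 9.67% and 7.54% of the interneuron marker sum in the controls and 7.52% and 6.43% in DCKO. Fosl2 amounted to 2.32% and 3.24% in the controls and 2.59% and 2.27% in DCKO. Against the sum the Fos mean was 1.23-fold lower in DCKO and the Fosl2 groups overlapped. Junb went from 14.5% and 12.1% to 8.23% and 5.40%. Fosb went from 3.18% and 3.52% to 0.507% and 0.558%, a 6.29-fold lower mean. Jun was at 3.39% and 2.88% in the controls and 21.9% and 17.5% in DCKO, and Jund at 5.12% and 5.11% against 29.6% and 21.0%. These ratios depend on the marker. With each of the 8 markers alone as the denominator, the DCKO to control ratio ran from 0.306 (Gad2) to 1.98 (Penk) for Fos, and from 0.337 to 2.13 for Fosl2 with the same markers at the ends. The Fos groups were lower in DCKO with 4 markers, overlapped with 3 and were higher with Penk, so the data give no single direction for Fos relative to interneuron markers. Junb ran from 0.196 (Gad2) to 1.27 (Penk) and was lower without overlap with 7 of the 8. Fosb ran from 0.0603 to 0.383 and was lower with all 8 markers. Jun, from 2.39 to 15.4, and Jund, from 1.89 to 12.2, were higher with all 8. Jun kept 89.7% and Jund 69.6% of the control mean, against at most 38.9% for any marker, so this direction follows from the division. The same holds for Fosb, which kept 2.34%, against at least 6.24% for any marker. Junb kept 7.17%, between Penk at 6.24% and the next marker, Synpr, at 11.3%. Its direction with each marker therefore follows from the division as well.

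**Figure D4:**
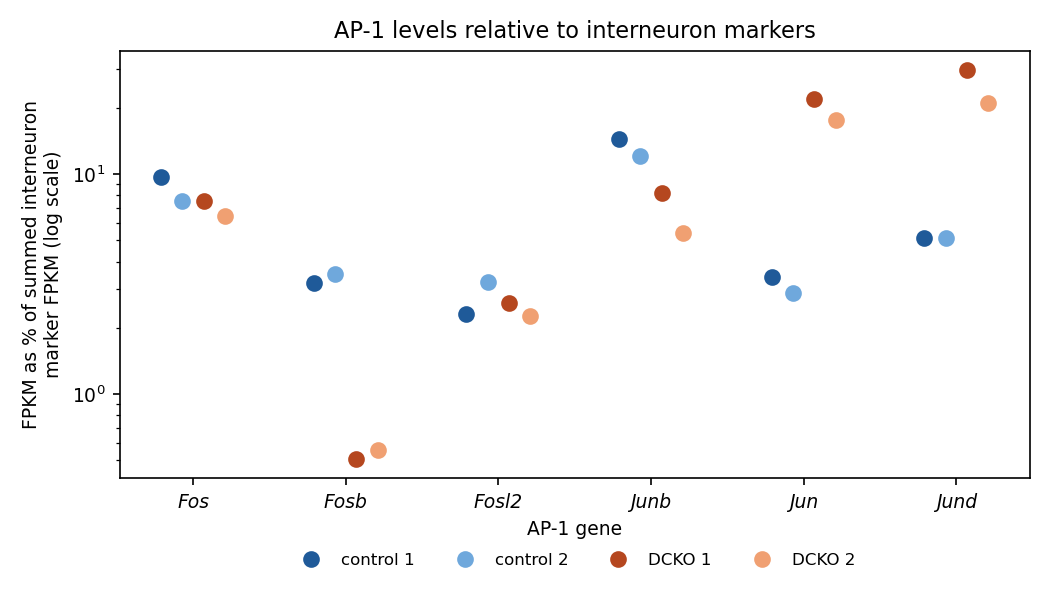
FPKM of each AP-1 gene as a percentage of the summed FPKM of 8 granule and GABAergic markers in the same library (log axis). Against this sum, Fosl2 groups overlap, the Fos mean is 1.23-fold lower in DCKO, Fosb is 6.29-fold lower in DCKO, and Jun and Jund are higher there.

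The genes whose centred log2 profile over the 4 libraries lay nearest that of Fos were, in order of Euclidean distance, Prokr2 (0.192), Slc32a1 (0.308), Meis2 (0.320), Gabra5 (0.324) and Rpp25 (0.355). Prokr2 encodes a prokineticin receptor, Slc32a1 the vesicular GABA transporter, Meis2 a homeobox factor, Gabra5 a GABA-A receptor subunit and Rpp25 a ribonuclease P subunit. Among 12591 genes with standard symbols, Fosl2 lay at 0.666 (rank 33), Junb at 0.727 (rank 40) and Fosb at 1.27 (rank 120). Jund, at 2.48 (rank 1131), and Jun, at 2.82 (rank 3887), were farther. With 4 libraries in 2 groups, such likeness mostly records a similar fold change.

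Genes known to act with or upstream of AP-1 had list medians between -0.37 and -0.01. These lists were chosen with earlier results of these data known, and their counts stand beside the 14.3% lower and 13.0% higher of all tested genes. Of 14 bZIP partners 10 were tested, 1 fell, 1 rose and 8 did not pass, with a median log2 change of -0.01. Atf3, a stress-induced partner of Jun, fell from 3.07 and 5.36 to 1.48 and 1.21 FPKM (log2 change -1.12, limma adjusted p = 0.0291). The Atf3 call was lost without either DCKO replicate and with no filter.

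Of 17 factors that act on the Fos and Jun promoters, 9 fell in limma and none rose (2 at an unadjusted p below 0.05), with a median log2 change of -0.37. Mkl1, an actin-regulated coactivator of SRF, fell from 12.5 and 12.8 to 8.07 and 6.55 FPKM (log2 change -0.72, limma adjusted p = 0.0134). Mef2c, a calcium-responsive factor of neurons, fell from 37.3 and 38.4 to 22.8 and 23.8 FPKM (-0.68, adjusted p = 0.00462). Srf itself fell from 13.5 and 14.1 to 7.83 and 9.52 FPKM (-0.62, adjusted p = 0.0179), a call lost without control replicate 2 (adjusted p = 0.0589). Creb1, which encodes the cyclic AMP response factor CREB, was at 8.42 and 8.15 FPKM in control bulbs, against 6.56 and 7.46 in DCKO bulbs and did not pass (adjusted p = 0.139). It is named for its role, outside the rule for named genes. The count of lower genes in this list was 4 without control replicate 1 and 2 without control replicate 2.

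The ERK arm, which carries synaptic signals to SRF partners, held 3 lower and 1 higher gene of 12, with a median of -0.02. Map2k1, the kinase MEK1, fell from 97.2 and 99.4 to 36.4 and 37.9 FPKM (log2 change -1.38, limma adjusted p = 0.000959). Its paralog Map2k2 (0.12), chosen for the pairing with it, did not pass (adjusted p = 0.466). Braf fell slightly (-0.29, limma adjusted p = 0.0490), a call lost in 9 of the 14 alternatives of the closing section. These were each library left out, no filter, 75th percentile scaling, quantile normalization, no variance trend and the replicate block. Rps6ka4, the kinase MSK2, rose (0.49, adjusted p = 0.0165), a call lost without control replicate 1 (adjusted p = 0.0828).

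The JNK arm, which acts on Jun, held 3 lower and 2 higher genes of 12, with a median of -0.04. Map3k1, a kinase at the top of this cascade, fell from 14.9 and 17.7 to 3.37 and 4.41 FPKM (log2 change -1.83, limma adjusted p = 0.00290). Map3k13 (-0.52, adjusted p = 0.0236) and the scaffold gene Mapk8ip3 (-0.43, adjusted p = 0.0127) fell too. Mapk10, the neuronal kinase JNK3, rose from 12.2 and 12.3 to 17.8 and 16.8 FPKM (0.46, adjusted p = 0.0136), and Map2k4 rose (0.35, adjusted p = 0.0353). The Map3k13 and Map2k4 calls were lost without any 1 of the 4 libraries. That of Map3k13 was also lost with the replicate block, and that of Map2k4 with no filter or no variance trend. The Mapk8ip3 call was lost without control replicate 2 and that of Mapk10 without either control.

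Genes with described AP-1 sites or dependence on Fos or Jun moved in both directions: of 17 tested, 3 fell and 7 rose, with a median log2 change of 0.04. Th, the enzyme that limits dopamine synthesis (-4.44, limma adjusted p = 0.000709), the enkephalin precursor Penk (-3.64, adjusted p = 0.00169) and the neuropeptide gene Gal (-1.41, adjusted p = 0.0159) fell. Gal, at 2.23 and 3.89 FPKM in control bulbs and 0.447 and 0.548 in DCKO bulbs, had a log2 change of -2.55 with a pseudocount of 0.01. It lost its call without either DCKO replicate (adjusted p = 0.0649 and 0.0516). Pdyn, the dynorphin precursor, rose from 0.522 and 0.497 to 4.75 and 3.59 FPKM (log2 change 1.77, limma adjusted p = 0.00396, and 2.99 with a pseudocount of 0.01). Pdyn was below 1 FPKM in both controls and passed the filter only through its DCKO values, so its count among the higher genes rests on that. The same holds for Cd44, called higher, at 0.783 and 0.593 FPKM in control bulbs and 1.62 and 1.49 in DCKO bulbs. Gal, below 1 FPKM in both DCKO libraries, passed the filter through its control values. Nts, the neurotensin precursor (1.497, adjusted p = 0.00966), and Vim, the intermediate filament of glia and progenitors (0.92, adjusted p = 0.00463), rose as well. Penk also belongs to the interneuron markers and Nts to the mitral and tufted cell markers used here. Without control replicate 2 the number of lower genes was 6, in a fit where the only control was the library with nasal and bone transcripts described below.

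Other immediate early genes were lower as well: 13 of 14 fell in limma, none rose (0 also at an unadjusted p below 0.05), and the median was -2.50. Arc (-4.26), Egr1 (-3.83) and Egr4 (-3.78) had the largest decreases on the log2(FPKM + 1) scale (limma adjusted p = 0.00185, 0.000808 and 0.000742), and Ier5 (0.02), the exception, did not pass (adjusted p = 0.918). The order depends on the scale: by the ratio of mean FPKM the low gene Egr2 was first, 44.7-fold lower (log2 change -2.43), followed by Arc (22.8-fold) and Egr4 (17.6-fold). Egr2 and Nr4a2, both among the lower genes, were below 1 FPKM in both DCKO libraries and passed the filter through their control values. The range of this list, from -4.26 to 0.02, spans the AP-1 range from -4.19 to -0.15.

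**Figure D5:**
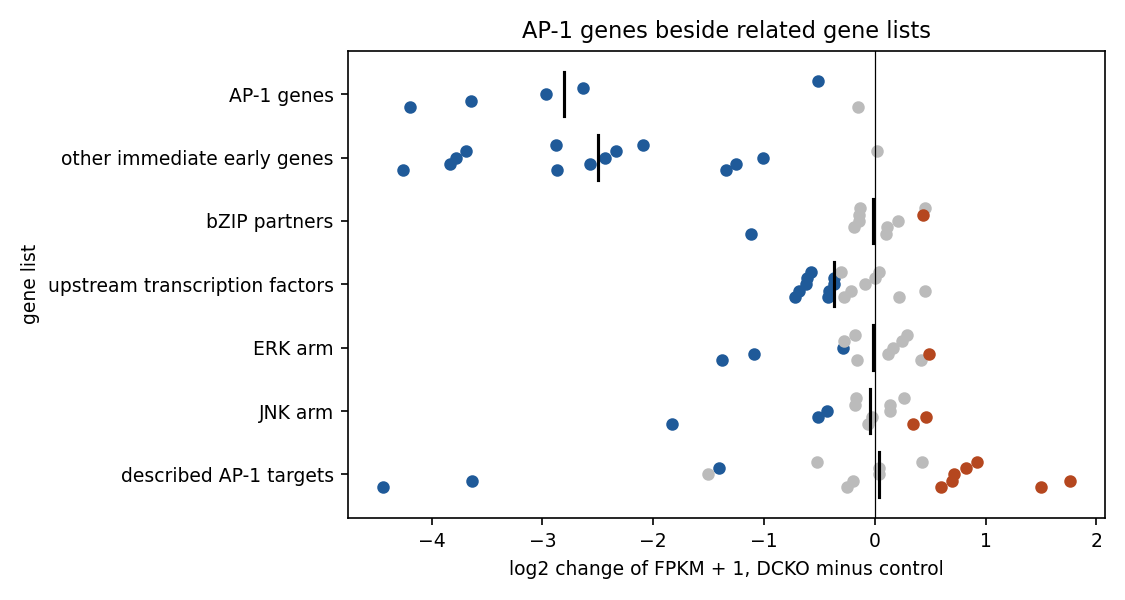
log2 change of FPKM + 1 (DCKO minus control) for each tested gene of the AP-1 family and of 6 related lists; blue points were lower, orange higher and grey did not pass the test, and black bars are list medians. The AP-1 genes (median -2.80) and other immediate early genes (-2.50) lie to the left, and the bZIP partners and both kinase lists centre near 0.

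The deletion and the tissue label were checked in the same table. Sp8 stood at 32.0 and 26.7 FPKM in control bulbs, against 1.68 and 2.03 in DCKO bulbs, and Sp9 at 24.0 and 30.7 against 0.0674 and 0.236. The markers of mitral and tufted cells, the projection neurons of the bulb, summed to 501 and 540 FPKM in control bulbs, against 1144 and 1020 in DCKO bulbs, with all 6 higher. Astrocyte markers (5 of 6 higher), microglia markers (4 of 6), endothelial markers (2 of 5) and red cell markers (3 of 4) moved up with DCKO as well, and no oligodendrocyte or olfactory sensory neuron marker passed. Summed levels in the controls against DCKO were 519 and 514 against 985 and 927 FPKM for astrocytes and 71.7 and 71.8 against 101 and 108 FPKM for microglia. Endothelial markers summed to 117 and 114 against 148 and 148 FPKM, and red cell markers to 777 and 373 against 2019 and 2829 FPKM. Their part in the AP-1 results was not tested. Control replicate 1 also had the highest summed markers of tissue around the bulb. Olfactory sensory neuron markers summed to 294 FPKM there and to 113, 201 and 164 FPKM in control 2, DCKO 1 and DCKO 2. Nasal epithelium markers summed to 84.3 FPKM there and to 7.12, 9.49 and 9.26 FPKM in the others, in that order, and bone markers to 168.6 FPKM against 39.4, 33.1 and 46.7 FPKM. Single genes made up most of both sums in control 1, Bpifa1 with 68.3 FPKM and Col1a1 with 120.7 FPKM. Foxj1 of the nasal list was not raised there (7.59 FPKM, against 6.24, 8.74 and 8.59 FPKM). Krt8 (6.27 FPKM, against at most 0.326 FPKM) and Ibsp (15.6 FPKM, against at most 1.23 FPKM) were. Of these lists, Krt5 was at 0 outside control 1, and Sp7 and Runx2 of the bone list were the 2 called genes, lower in DCKO. These 2 were not particular to control 1. Sp7 had 14.1 FPKM there, 11.6 FPKM in control 2, and 0.334 and 0.420 FPKM in DCKO. Runx2 was higher in control 2 (5.20 FPKM) than in control 1 (3.77 FPKM), with 0.519 and 0.467 FPKM in DCKO. Both count in the bone sums above, and the source of their transcripts was not tested. Without control replicate 1 the same AP-1 genes were lower, with log2 changes of -2.77 for Fos, -4.24 for Fosb, -2.85 for Fosl2, -3.50 for Junb and -0.49 for Jund (limma adjusted p at most 0.0379), and Jun was at -0.02.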

How the data were processed

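Per the labels' protocols, bulbs were dissected cold and frozen, and total RNA was column-purified before Illumina library preparation. Per the submitters' processing notes, TopHat (version not given) and Cufflinks 2.1.1 were run against GRCm38.p4; neither the annotation nor the strand setting is named there. The authors deposited FPKM for 20032 gene symbols and, per the file headers, columns called count. The latter are treated as a signal, fragments scaled by the authors with 1 factor per library, since the values are not whole; they sum to between 14632502 and 15400982 per library. Depth sets counting error only.

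FPKM was fitted on log2(FPKM + 1) with limma 3.58.1 in R 4.3.3 (intensity trend, genotype as the only term, prior degrees of freedom 2.91), over the 13434 genes that averaged 1 FPKM or more. A self-test on simulated data, with means and spread taken from the real values, was run after the fits, and its outcome is not given here. Gene positions come from GENCODE M21 and promoters from RefSeq. Marker lists covered interneurons, mitral and tufted cells, sensory neurons, glia, endothelium, bone, nasal epithelium and blood. Members, lists and tests were chosen with earlier results of these data known. Named by rule are all members, Sp8 and Sp9, up to 3 called genes of largest change per direction and list, and the 5 profiles nearest Fos. Ccdc85b, Prdx2, Creb1, Map2k2, Ier5, Egr2, Nr4a2, Cd44, Jdp2, Tmed10 and single cell type markers are named outside it. Some genes that the rule names are not reported here. Library correlations of log2 values were 0.982 and 0.986 within genotypes and 0.932 to 0.944 across. Alternatives are in the closing section.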

Additional observations from a re-analysis of the deposited data

How the results depend on the processing

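The 5 lower members, and the count of 0 higher, were the same under all 14 alternatives: pseudocounts of 0.1 and 0.01, no filter, a filter at 5 FPKM, 3 other scalings, no variance trend, a replicate block, scaled counts, and each library left out (5 lower each time). Over these, log2 changes ran from -3.16 to -2.77 for Fos, -5.44 to -4.05 for Fosb, -2.98 to -2.42 for Fosl2, -3.79 to -3.50 for Junb, -0.54 to -0.41 for Jund and -0.28 to -0.02 for Jun. All 6 differences in log2 ratio between genotypes kept their sign. A scaling by 1 factor per library, the filter, the trend and the block cannot change such a ratio. Leaving out 1 library cannot turn the sign either, since the control and DCKO ratios of each pair did not overlap. The replicate numbers did not pair the libraries (correlation of deviations -0.0211). With the replicate block 1418 genes were lower and 1312 higher over all genes, 5 members stayed lower, and the bZIP list had 0 higher.

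Leaving out 1 library gave 1030 to 1875 lower and 806 to 1384 higher genes overall. It gave 0 to 1 lower and 0 to 1 higher bZIP partners, 2 to 8 lower upstream factors, 0 to 2 higher ERK genes, 1 to 2 lower and 0 to 1 higher JNK genes, and 2 to 6 lower described targets. Where 1 library was left in a group, it was assumed to vary like the other pair. The bZIP list had 0 lower and 0 higher without a filter and with the filter at 5 FPKM, and 2 higher with 75th percentile scaling or quantile normalization. Under these 2 scalings 1 upstream factor and 3 ERK genes were higher, and with median of ratios scaling or scaled counts 2 ERK genes were. JNK genes had 1 higher without a filter or without the trend. Described targets had 4 higher with the filter at 5 FPKM, where 8 were tested. Ccdc85b ran from -0.18 to 0.0038 with 1 library left out, turning positive without DCKO replicate 1. The Fos ratio to interneuron markers turned from 0.811 with the sum of 8 to 1.98 with Penk alone, one of 8 single markers tried after the values were seen. An edgeR test was not run because the values are not raw counts. Causes of these moves were not tested. Depth limits Fosb in DCKO most, and Fosl1 was not detectable.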

Other observations

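The nearest protein-coding gene of the table on each side of every AP-1 gene was looked up after the values were seen, giving 14 neighbours. Of the 12 that passed the filter, none was lower in DCKO in limma (0 at an unadjusted p below 0.05) and 1 was higher, with log2 changes between -0.71 and 0.62. The higher neighbour was Tmed10, 99043 bases from Fos, at 34.0 and 31.8 FPKM in control bulbs, against 40.6 and 41.3 in DCKO bulbs (log2 change 0.31, limma adjusted p = 0.0309). Its call was lost without any 1 of the 4 libraries, and also with no variance trend or with the replicate block. On the other side of Fos lies Jdp2, a bZIP repressor that pairs with Jun proteins, at 21.3 and 21.4 FPKM in control bulbs, against 17.1 and 22.0 in DCKO bulbs (log2 change -0.13, limma adjusted p = 0.468).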
